A study of Mus musculus with 23 samples.

Results

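Small intestines of mice that had received the same treatment, Con-FMT, were compared between both sets of libraries that the sample names define. Members were chosen by the code in the library name alone: 3 libraries carried the prefix I1 (set 1) and 3 the prefix I2 (set 2), which made 6 of the 23 libraries of the series. The meaning of this prefix is not given in the labels or the paper's text, so the differences between set 1 and set 2 are described without a name for what separates them.

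All 6 libraries came from ICR male mice, an outbred strain, that were injected with busulfan once at 3 weeks of age at 40 mg/kg. Busulfan is an alkylating anticancer drug that damages dividing cells, those of the intestinal crypt among them. From the next day the mice received fecal microbiota transplantation (FMT) by oral gavage at 0.1 ml per mouse per day. In the Con-FMT group the transplant was small intestinal luminal content of donors that had been given ddH2O, the vehicle, for 3 weeks. The contents of the donors of a group were pooled, so that the recipients of a group shared 1 donor pool as far as the methods say. The methods describe a single schedule, with 1 week of FMT, 1 further week and tissue taken at 5 weeks of age, and do not say to which set it belongs. The other treatments, all with busulfan, were saline (Sa) and FMT from donors given alginate oligosaccharide at 10 mg/kg (A10-FMT) or 100 mg/kg (A100-FMT), with 3 libraries per set except for Sa of set 1 with 2. No label ties a library to a cage, litter or day, so that the p-values below measure only the spread between these libraries, which may be technical in part.

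The epithelium of the small intestine is renewed from stem cells at the crypt base. Their daughters become absorptive enterocytes, which digest and take up food as they move up the villus, or secretory cells. Paneth cells stay at the crypt base and release lysozyme and alpha-defensins, goblet cells make mucus and enteroendocrine cells make hormones. Notch signalling steers the choice between the absorptive and the secretory fate.

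The deposited levels were FPKM, fragment numbers scaled by the length of the transcript and by the total of the library, and covered 19215 entries. Their sums ran from 564817 to 589309 FPKM over the 6 libraries, and read numbers were not used here, so that the depth is unknown. Genes of the small intestinal epithelium summed to 7170 to 7790 FPKM in set 1 and 7390 to 8190 FPKM in set 2 (10 of 10 listed genes tested), as the tissue label says. Among the markers of cells outside the epithelium, fibroblast and matrix genes summed to at most 0.67 FPKM with *Pdgfra* at 0 in all 6 libraries, macrophage and dendritic cell genes to at most 3.16 FPKM, and B cell and plasma cell genes to at most 2.71 FPKM with *Pax5* and *Fcrla* at 0. T cell genes, described below, reached 303 FPKM, smooth muscle genes summed to 76.4 to 88.5 FPKM and erythroid genes to at most 49.8 FPKM. Within the smooth muscle list a single gene reached 78.3 FPKM, and 3 of the 10 measured genes were high enough to be tested. The muscle genes *Acta2* and *Myh11*, named after their values were seen, were at most 0.07 and 0.03 FPKM. Libraries correlated across genes with r of 0.98 to 0.988 within the sets (6 pairs) and 0.979 to 0.989 between them (9 pairs), and no library had low values with the other 5.

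Differences between the 2 sets of Con-FMT libraries were small for most genes. Testing was limited to the 11337 genes that averaged 1 FPKM or more across all 23 libraries. A single gene, *Bhlha15*, passed the test and was higher in set 1 (0.00882% of the genes tested), and 0 were higher in set 2. The test was limma on log2(FPKM + 1) with Benjamini-Hochberg adjustment over all genes tested, two-sided, at a threshold of 0.05. At an unadjusted p under 0.05 there were 674 genes (5.95%), 365 higher in set 1 and 309 higher in set 2. The median absolute log2 difference was 0.07. In the gene lists below, a higher or lower mean is that of log2(FPKM + 1). The 95% confidence interval of the difference lay within 2-fold in both directions for 10890 genes (96.1%) and within 1.5-fold for 10190 (89.9%). For the remaining 447 genes the interval reached past 2-fold, so that a difference of more than 2-fold was not excluded. The groups of 3 did not overlap for 1634 genes (14.4%), 925 with set 1 above (8.16%) and 709 with set 2 above (6.25%). The count of 1 became 0 without set 1 replicate 1, set 2 replicate 1 or set 2 replicate 3 of Con-FMT, and 2 without set 1 replicate 3 of Con-FMT, set 1 replicate 1 or 2 of A100-FMT or set 2 replicate 2 of A100-FMT.

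**Figure D1:**
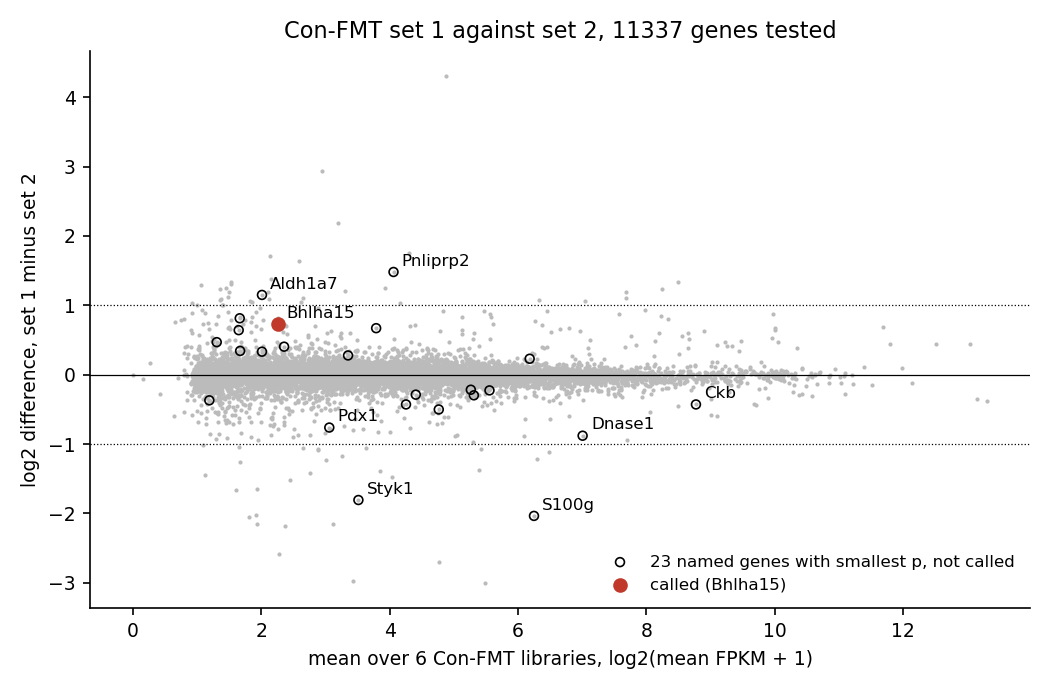
Log2 difference (set 1 minus set 2) of each of the 11337 genes tested on the vertical axis against the log2 of the mean FPKM + 1 over the 6 Con-FMT libraries on the horizontal axis. Most genes lie close to 0, the red point is *Bhlha15* at 0.73, and open circles are the 23 other named genes with the smallest p in each direction, which were not called.

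*Bhlha15* (gene number 17341) encodes a transcription factor, also called Mist1, that sets up the secretory apparatus of cells such as Paneth, acinar and plasma cells. Its level in set 1 was 6.08, 4.49 and 4.45 FPKM, and in set 2 it was 2.39, 3.03 and 2.40 FPKM. The lowest library of set 1 lay above the highest of set 2. The log2 difference was 0.73 (SE 0.10, 95% interval 0.52 to 0.94, limma adjusted p = 0.0141, n = 3 and 3). In the other treatments the log2 difference of *Bhlha15* between the sets was 0.22 in A10-FMT, 0.05 in A100-FMT and 0.56 in Sa. The call was kept in 30 of the 37 alternative settings that tested the gene, and the adjusted p ranged from 0.0106 to 0.5 over them. Without set 1 replicate 1 the difference was 0.61 with an adjusted p of 0.0982 (limma), without set 2 replicate 1 it was 0.69 with 0.182 and without set 2 replicate 3 it was 0.69 with 0.18. A permutation test of 3 libraries against 3 has 20 regroupings and cannot go below an exact p of 0.1, so no single gene was tested in that way. The gene lies on the plus strand of chr5:144190286-144194441 (GRCm38.p6, RefSeq), and the 250 bases before its start are given here since it was the only gene called.
Bhlha15: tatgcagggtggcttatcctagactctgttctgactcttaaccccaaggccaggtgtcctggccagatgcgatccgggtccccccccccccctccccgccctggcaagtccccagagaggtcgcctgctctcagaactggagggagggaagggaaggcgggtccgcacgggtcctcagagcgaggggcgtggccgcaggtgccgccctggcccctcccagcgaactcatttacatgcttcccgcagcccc
This stretch, at chr5:144190036-144190285, held 0 matches to CTTTGA or CTTTGT on either strand, the letters searched in the Paneth cell promoters below.

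**Figure D2:**
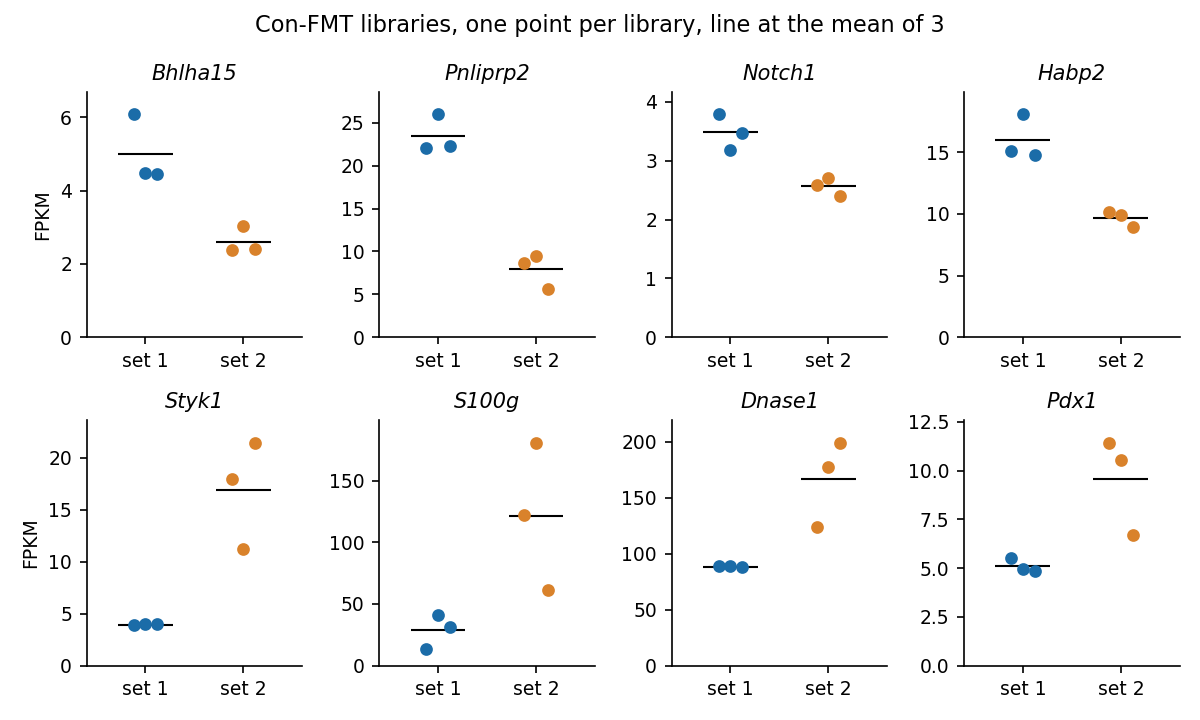
FPKM of 8 genes in the 6 Con-FMT libraries, 1 point per library, with a line at the mean of 3. In each panel the points of set 1 and set 2 do not overlap, and *Bhlha15*, with 4.45 to 6.08 FPKM in set 1 against 2.39 to 3.03 in set 2, is the gene that passed the test.

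Of the genes with the next smallest p and a higher mean in set 1, none passed the test (limma adjusted p from 0.0909 upward). *Pnliprp2*, which encodes a lipase that acts on galactolipids, measured 22.0, 26 and 22.3 FPKM in set 1 and 8.6, 9.51 and 5.62 FPKM in set 2. All libraries of set 1 were above 20 FPKM and all of set 2 below 10, with a log2 difference of 1.48 (SE 0.25, limma adjusted p = 0.0909). This was the second smallest adjusted p of all genes, and it was 0.032 with the replicate number as a block. The set difference of *Pnliprp2* was 0.17 in A10-FMT, 0.05 in A100-FMT and 1.02 in Sa on the same scale. As for *Bhlha15*, the values of Con-FMT and Sa were the larger ones. *Notch1*, the receptor of the Notch pathway in the crypt, measured 3.79, 3.19 and 3.48 FPKM in set 1 and 2.58, 2.71 and 2.40 FPKM in set 2, and the log2 difference was 0.33 (SE 0.08). *Habp2*, a secreted serine protease that binds hyaluronan, measured 15.1, 18.1 and 14.8 FPKM in set 1 against 10.1, 9.90 and 8.92 FPKM in set 2, with a log2 difference of 0.67 (SE 0.17). *Aldh1a7*, an aldehyde dehydrogenase, measured 3.04, 4.81 and 5.68 FPKM in set 1 against 0.74, 2.56 and 1.32 FPKM in set 2, with a log2 difference of 1.15 (SE 0.31). In these 3 genes the sets did not overlap either, and *Aldh1a7* had the widest intervals. The other 7 genes of this direction were *St3gal1* and *A4gnt*, which add sugars to mucin-type glycans, *Adra2a*, an adrenergic receptor, *Copz2*, a coatomer subunit, *Adamts15*, a matrix protease, *Dag1*, the matrix receptor dystroglycan, and *Gm14391*, and their log2 differences were 0.23 to 0.81.

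In the opposite direction *Styk1*, a receptor-like kinase (gene number 243659), had the smallest p. Its level was 3.87, 3.98 and 4.01 FPKM in set 1 and 17.9, 11.2 and 21.4 FPKM in set 2. Every library of set 2 was more than 2 times every library of set 1, yet the test was not passed, with a log2 difference of -1.81 (SE 0.35, limma adjusted p = 0.223). *Styk1* also had a lower mean in set 1 of A10-FMT (3.83 ± 0.31 FPKM in set 1 and 17.6 ± 8.58 in set 2, SD, n = 3) and of A100-FMT (5.85 ± 3.92 and 13.8 ± 3.76, SD, n = 3), with log2 differences of -1.85 and -1.23, and in Sa the value was -0.32. *S100g*, the vitamin D dependent calcium binder calbindin-D9k of the duodenal enterocyte, measured 13.9, 41.1 and 31.4 FPKM in set 1 and 122, 181 and 61.4 FPKM in set 2. Its log2 difference, -2.04 (SE 0.52, limma adjusted p = 0.666), was among the largest of the comparison, but the libraries of set 2 were spread from 61.4 to 181 FPKM. *Dnase1*, a secreted nuclease, measured 88.8, 88.9 and 87.9 FPKM in set 1 and 124, 178 and 199 FPKM in set 2 (-0.88, SE 0.20). *Pdx1*, a transcription factor of the proximal intestine, measured 5.52, 4.96 and 4.83 FPKM in set 1 and 11.4, 10.6 and 6.69 FPKM in set 2 (-0.76, SE 0.20). *Ckb*, the brain-type creatine kinase, measured 377, 358 and 382 FPKM in set 1 and 481, 509.7 and 514 FPKM in set 2 (-0.43, SE 0.11). For *Dnase1* the libraries of set 1 were nearly equal and those of set 2 spread out, while for *Ckb* both sets were narrow. *Prdm1*, a transcriptional repressor that marks the suckling epithelium, measured 0.91, 1.02 and 1.03 FPKM in set 1 and 1.38, 1.63 and 1.70 FPKM in set 2 (-0.37, SE 0.09). *Slc46a1*, the folate transporter, measured 17.0, 20.4 and 27.8 FPKM in set 1 and 28.7, 34.8 and 28.5 FPKM in set 2 (-0.50, SE 0.14). In *Slc46a1* the gap between the highest library of set 1 and the lowest of set 2 was smaller than the spread within set 1. *Fbxo25*, *Fam214b*, *Pxdc1*, *Pgrmc2* and *Tmem150b* completed this direction with -0.22 to -0.43.

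A rule of size rather than of p picked other genes. At least a 2-fold ratio of means of FPKM + 1 together with no overlap of the 6 libraries was met by 30 entries, 11 higher in set 1 (0.097% of the genes tested) and 19 higher in set 2 (0.168%). Of these, 4 and 13 had a gene symbol. Among the 13, *Ceacam2* (an adhesion molecule, named after its values were seen) had 148 FPKM in set 2 replicate 1, 5.44 and 1.13 FPKM in the other libraries of set 2 and 0.92, 0.94 and 0.99 FPKM in set 1. A single library carried that ratio. *Haspin*, a mitotic histone kinase also named after its values were seen, had the reverse pattern with little spread, at 1.89, 1.98 and 1.99 FPKM in set 1 and 0.32, 0.14 and 0.16 FPKM in set 2. Its log2 difference of 1.29 (SE 0.42) did not pass the test (limma adjusted p = 0.668), in which the spread was estimated over all 23 libraries.

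The Paneth cell genes had the highest median of the lists with at least 6 tested members. Of 18 listed genes 17 were tested, and all 17 had a higher mean in set 1, with a median log2 difference of 0.60 against 0.01 for all genes tested. Without set 1 replicate 2 the median was 0.36, and 2 of the 17 changed sign when 1 library was left out, *Mmp7* (-0.01 to 0.42) and *Defa21* (-1.12 to 3.37). None was called (0 of 17), and 6 had an unadjusted p under 0.05 (limma), against 5.95% of all genes in either direction. For 8 of 17 the sets did not overlap with set 1 above, against 8.16% of all genes. *Lyz1*, the lysozyme of Paneth granules, measured 4009, 4697 and 3532 FPKM in set 1 and 2429, 2367 and 2794 FPKM in set 2. *Ang4*, an antimicrobial ribonuclease (named after its values were seen, as were *Itln1*, *Mmp7* and the defensins other than *Defa17* and *Defa24*), measured 1290.4, 1518 and 1120.2 FPKM in set 1 and 743, 677 and 708 FPKM in set 2. *Itln1*, the lectin intelectin-1, measured 1232, 1491 and 1092 FPKM in set 1 and 724, 842 and 814 FPKM in set 2. In all of these set 1 replicate 2 was the highest library and set 1 replicate 3 the lowest of its set, still above set 2. Their log2 differences were 0.68 (SE 0.26) for *Lyz1*, 0.87 (SE 0.28) for *Ang4* and 0.67 (SE 0.19) for *Itln1*, with limma adjusted p of 0.721, 0.668 and 0.668. The most abundant alpha-defensins also did not overlap: *Defa24* measured 6788, 7744 and 5714 FPKM in set 1 and 4941, 4756 and 5096 FPKM in set 2, and *Defa17* 4202, 4564 and 3618 FPKM against 3062, 2869 and 3175 FPKM. Both differed by 0.44 on the log2 scale (SE 0.18 and 0.17). *Defa3*, *Defa5*, *Defa26* and *Defa39* had log2 differences of 0.60, 0.53, 0.49 and 0.48. *Mmp7*, the protease that activates the defensins, was the exception in size at 115, 211 and 178 FPKM in set 1 and 153, 124 and 157 FPKM in set 2, where the sets overlapped (0.18, SE 0.27).

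A few defensin genes behaved otherwise. *Defa21* measured 1.94, 409.8 and 256 FPKM in set 1 and 0.44, 40.6 and 518 FPKM in set 2, and *Defa22* measured 155, 708 and 486 FPKM against 127, 155 and 765 FPKM. *Defa20* measured 78.5, 577 and 398 FPKM against 65.5, 78.8 and 602 FPKM. In all of these set 1 replicate 1 and set 2 replicates 1 and 2 were low and the other libraries high, so that the split ran across the sets. The alpha-defensin genes are near-identical copies, and the counting could divide their fragments between copies, so that the values of single defensin genes are uncertain. Bulk tissue was measured, in which fewer cells of a type and less RNA per cell cannot be told apart.

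The promoters of 3 Paneth cell genes are shown since this list had the highest median. As background, Wnt signalling acts in Paneth cells through TCF factors, which bind DNA at sites with the core CTTTGA or CTTTGT. Of the 17 tested Paneth cell genes, 10 had a promoter in the RefSeq table of GRCm38.p6, and 9 of these 10 held either motif on either strand in the 250 bases before the start. The share over all 32851 promoters of that length was 27.6% for either motif, 13.8% for CTTTGA and 16.5% for CTTTGT. The promoter of *Defa22* had 0 differences from that of *Defa21*, so that these do not count as separate cases, and the other defensin promoters were not compared with each other. The sequences, on the strand of the gene, are those of *Lyz1* (chr10:117292869-117293118, minus strand), *Ang4* (chr14:51773591-51773840, minus strand) and *Defa21* (chr8:21025295-21025544, plus strand). Capitals mark the matches, in either orientation (ACAAAG and TCAAAG are the reverse complements).
Lyz1: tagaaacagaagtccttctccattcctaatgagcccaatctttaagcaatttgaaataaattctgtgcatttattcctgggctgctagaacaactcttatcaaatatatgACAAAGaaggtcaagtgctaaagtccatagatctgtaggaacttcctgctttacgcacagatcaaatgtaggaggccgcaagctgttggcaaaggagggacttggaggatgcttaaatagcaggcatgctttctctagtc
Ang4: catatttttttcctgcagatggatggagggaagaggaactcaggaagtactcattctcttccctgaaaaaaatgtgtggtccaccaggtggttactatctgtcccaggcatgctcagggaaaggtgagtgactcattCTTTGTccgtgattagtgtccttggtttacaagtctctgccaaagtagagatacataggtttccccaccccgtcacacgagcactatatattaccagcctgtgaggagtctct
Defa21: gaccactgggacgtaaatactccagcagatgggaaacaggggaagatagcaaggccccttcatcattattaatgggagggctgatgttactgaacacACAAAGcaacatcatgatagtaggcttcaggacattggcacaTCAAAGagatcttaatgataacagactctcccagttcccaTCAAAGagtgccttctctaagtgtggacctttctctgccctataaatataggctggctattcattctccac
*Lyz1* and *Ang4* each held 1 match to CTTTGT, and *Defa21* held 3 matches, 2 to CTTTGA and 1 to CTTTGT. The promoter of *Itln1*, which is not shown, held 0 matches and was the one without either motif. *Defa21* is a gene whose values split across the sets. A match describes letters and not a bound site, and binding was not measured in these libraries.

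**Figure D3:**
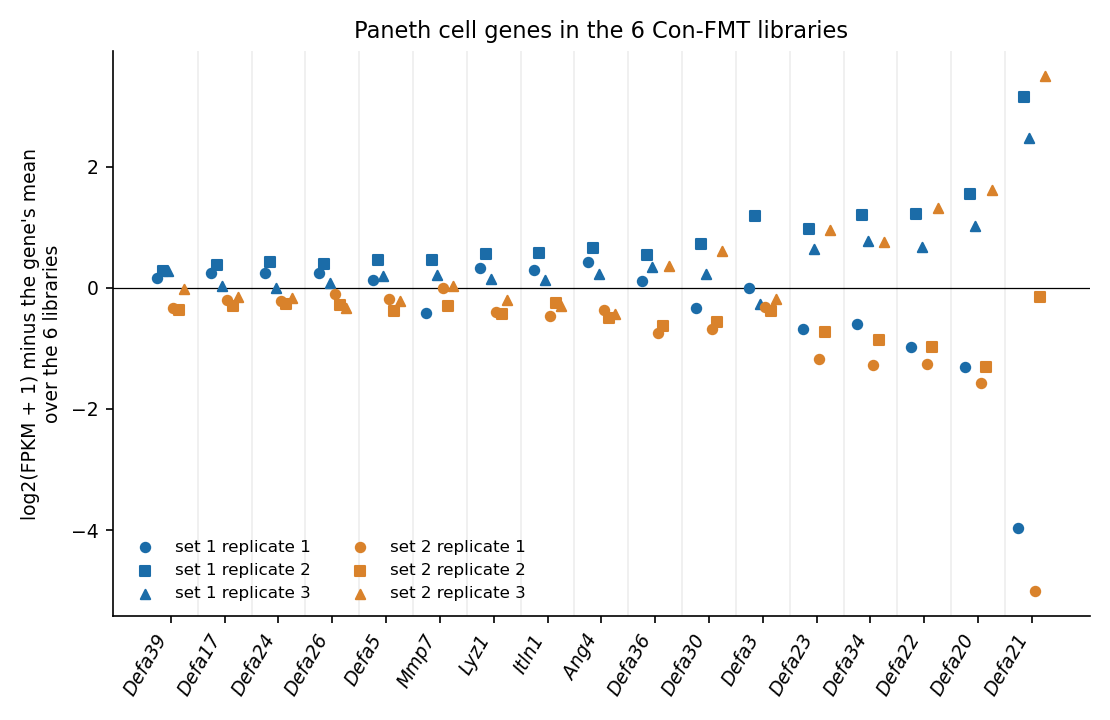
The 17 tested Paneth cell genes in the 6 Con-FMT libraries, as log2(FPKM + 1) minus the gene's own mean over these libraries. Set 1 lies above set 2 for genes such as *Lyz1*, *Ang4* and *Itln1*, while *Defa20*, *Defa21* and *Defa22* are low in set 1 replicate 1 and set 2 replicates 1 and 2.

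The other treatments gave different values for the Paneth cell list. The median log2 difference between the sets was -0.13 in A10-FMT, -0.19 in A100-FMT and 1.22 in Sa, whose set 1 had 2 libraries. For *Lyz1* the log2 difference was 0.04 (SE 0.26) in A10-FMT, -0.12 (SE 0.26) in A100-FMT and 1.34 (SE 0.29) in Sa. The difference of the set difference between Con-FMT and A10-FMT was 0.64 (SE 0.36) for *Lyz1* and did not pass the test (limma adjusted p = 0.23), and 0 of the 17 genes did. The sum over the Paneth cell list ran from 20460 to 27180 FPKM in set 1 and from 14380 to 18560 FPKM in set 2.

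Goblet and enteroendocrine genes were not one-sided. Of 12 goblet cell genes 8 had a higher mean in set 1, 0 were called, and the median log2 difference was 0.06 (-0.03 without set 1 replicate 3). The mucus genes *Tff3* and *Zg16* measured -0.12 (SE 0.15) and -0.15 (SE 0.15), while *Clca1*, a mucus-processing protease, measured -0.35 (SE 0.14) with overlapping sets. The chemokine *Ccl6*, on the same list, measured 135, 161 and 159 FPKM in set 1 and 122, 125 and 123 FPKM in set 2. Its log2 difference was 0.29 (SE 0.08), and the narrow set 2 lay wholly below set 1. Of 14 enteroendocrine genes 6 had a higher and 8 a lower mean in set 1 and 0 were called, with a median of -0.05 (-0.009 without set 1 replicate 2, and -0.20 over the members with a mean of 5 FPKM or more). The sets did not overlap for 2 of 14 with set 1 above and for 3 of 14 with set 2 above, beside 8.16% and 6.25% of all genes. The granule protein gene *Chgb* measured 38.9, 39.5 and 38.1 FPKM in set 1 and 27.5, 30 and 32.4 FPKM in set 2 (0.37, SE 0.11), which did not overlap. *Chga*, another granule protein gene, had a log2 difference of 0.18 (SE 0.07) and *Gcg*, the precursor of GLP-1, 0.36 (SE 0.14). The 3 with set 2 above were hormone genes. *Sct*, secretin, measured 31.7, 37.6 and 41.3 FPKM in set 1 and 42.8, 41.4 and 52.2 FPKM in set 2 (-0.30, SE 0.18), with a gap of under 1 FPKM between the sets. *Cck*, cholecystokinin, had a log2 difference of -0.20 (SE 0.11) and *Sst*, somatostatin, of -0.22 (SE 0.16). *Pyy*, peptide YY, had the lowest value of the list at -0.37 (SE 0.20) and overlapped. *Reg4*, a lectin of enteroendocrine and secretory cells, measured 131, 154 and 177 FPKM in set 1 and 145, 97.7 and 112 FPKM in set 2, which overlapped (0.39, SE 0.18). *Clca1*, *Chga*, *Gcg*, *Cck*, *Sst*, *Pyy* and *Reg4* were named after their values were seen.

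Stem cell and Notch genes had small differences. Of 18 tested, 14 had a higher mean in set 1, 0 were called, and for 7 of 18 the sets did not overlap with set 1 above, against 8.16% of all genes. The median log2 difference was 0.12. *Sox9*, a transcription factor of the crypt base, measured 7.85, 7.71 and 7.73 FPKM in set 1 and 6, 5.83 and 6.49 FPKM in set 2 (0.30, SE 0.10). *Ephb3*, the receptor that keeps Paneth cells at the crypt base, had a log2 difference of 0.34 (SE 0.11), and *Notch2* of 0.20 (SE 0.08). *Kit*, a receptor on the mast cell list that Paneth cells also carry, measured 2.87, 3.25 and 3.63 FPKM in set 1 and 2.33, 2.33 and 2.45 FPKM in set 2 (0.33, SE 0.10). The sets did not overlap for any of these, while the most abundant stem cell gene, *Olfm4*, overlapped, at 431, 478 and 436 FPKM in set 1 and 396, 375 and 471 FPKM in set 2. *Sox9*, *Ephb3* and *Notch2* were named after their values were seen. The crypt proliferation list, with 31 genes of DNA replication and mitosis, had a median of 0.05 (-0.0041 without set 2 replicate 2) with 0 called, and for 1 of 31 the sets did not overlap, against 14.4% of all genes.

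Several lists of mature enterocyte genes mostly had lower means in set 1, others did not, and 0 genes were called in any of them. Of 16 brush-border disaccharidase and peptidase genes 14 were lower in mean in set 1 (median -0.16), of 28 genes of dietary fat uptake 23 (median -0.11), of 13 villus-tip purine genes 10 (median -0.18) and of 17 amino acid and peptide transporters 11 (median -0.06). By contrast 7 of 11 genes of sugar transport and fructose metabolism (median 0.05) and 15 of 23 of fatty acid oxidation (median 0.02) had a higher mean in set 1, and the 4 adult-type enterocyte genes were split evenly. Without set 2 replicate 1 the medians were -0.28 for the brush border, -0.20 for fat uptake, -0.33 for the villus tip, -0.16 for the amino acid transporters and -0.12 for sugar transport. Without set 2 replicate 2 they were -0.08 for the brush border, -0.06 for fat uptake and -0.02 for the amino acid transporters, for which -0.02 was also found without set 1 replicate 2 and -0.11 without set 1 replicate 3. Fat uptake was at -0.06 without set 2 replicate 3. *Anpep*, aminopeptidase N, measured 1519.9, 1497 and 1587 FPKM in set 1 and 1553, 1874 and 1647 FPKM in set 2 (-0.14, SE 0.08). *Apoa4*, an apolipoprotein of chylomicrons, measured 736, 853 and 942 FPKM in set 1 and 862, 1144 and 1208 FPKM in set 2 (-0.34, SE 0.17). *Akp3*, an alkaline phosphatase of the duodenum, measured 9.44, 23.6 and 33.2 FPKM in set 1 and 46.5, 102 and 30.4 FPKM in set 2 (-1.38, SE 0.56). These 3 genes overlapped between the sets. *Ada*, adenosine deaminase of the villus tip, measured 13.8, 20.3 and 33.6 FPKM in set 1 and 37.7, 38.4 and 43.9 FPKM in set 2 (-0.88, SE 0.31). *Tmprss15*, the enteropeptidase of the duodenum, measured 0.61, 1.23 and 1.94 FPKM in set 1 and 2.29, 3.16 and 2.41 FPKM in set 2 (-0.71, SE 0.24). For *Ada* and *Tmprss15*, as for *S100g* and *Akp3*, set 1 replicate 1 was the lowest library. Further log2 differences were -0.28 for *Fabp2*, a fatty acid carrier, -0.19 for *Alpi*, another alkaline phosphatase, -0.33 for *Slc6a19*, -0.14 for *Slc7a7* and -1.01 for *Slc6a14*, all amino acid transporters. *Slc6a14*, which had the lowest value of that list, was at 0.19, 0.50 and 0.56 FPKM in set 1 and 2.42, 1.5 and 1.66 FPKM in set 2. *Ada*, *Tmprss15*, *Slc6a14* and *Slc6a19* were named after their values were seen. The genes of proximal and distal small intestine both had negative medians, -0.10 over 10 genes (-0.23 without set 2 replicate 1 and -0.02 without set 2 replicate 3) and -0.17 over 9. A difference in the part of the small intestine sampled was not tested.

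Genes that the epithelium expresses in response to bacteria mostly had lower means in set 1. Of 15 tested 13 had a lower mean in set 1, 0 were called, and the median log2 difference was -0.30, which ran from -0.19 to -0.12 without set 1 replicate 1 or 3 or any 1 library of set 2. *Reg3b* and *Reg3g* encode secreted lectins that bind bacteria. *Reg3b* measured 7850, 11009 and 7549.6 FPKM in set 1 and 13433, 12950 and 8289.5 FPKM in set 2 (-0.38, SE 0.25), and *Reg3g* had a log2 difference of -0.34 (SE 0.21). In both genes set 1 replicate 2 overlapped set 2. *Saa1*, serum amyloid A, measured 2.59, 13.5 and 9.24 FPKM in set 1 and 29.5, 23.4 and 14.6 FPKM in set 2 (-1.48, SE 0.64), and *Reg1*, another lectin gene, had a log2 difference of -0.94 (SE 0.39). *Saa1* did not overlap between the sets and *Reg1* did. *Saa1* and *Reg1* were named after their values were seen.

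**Figure D4:**
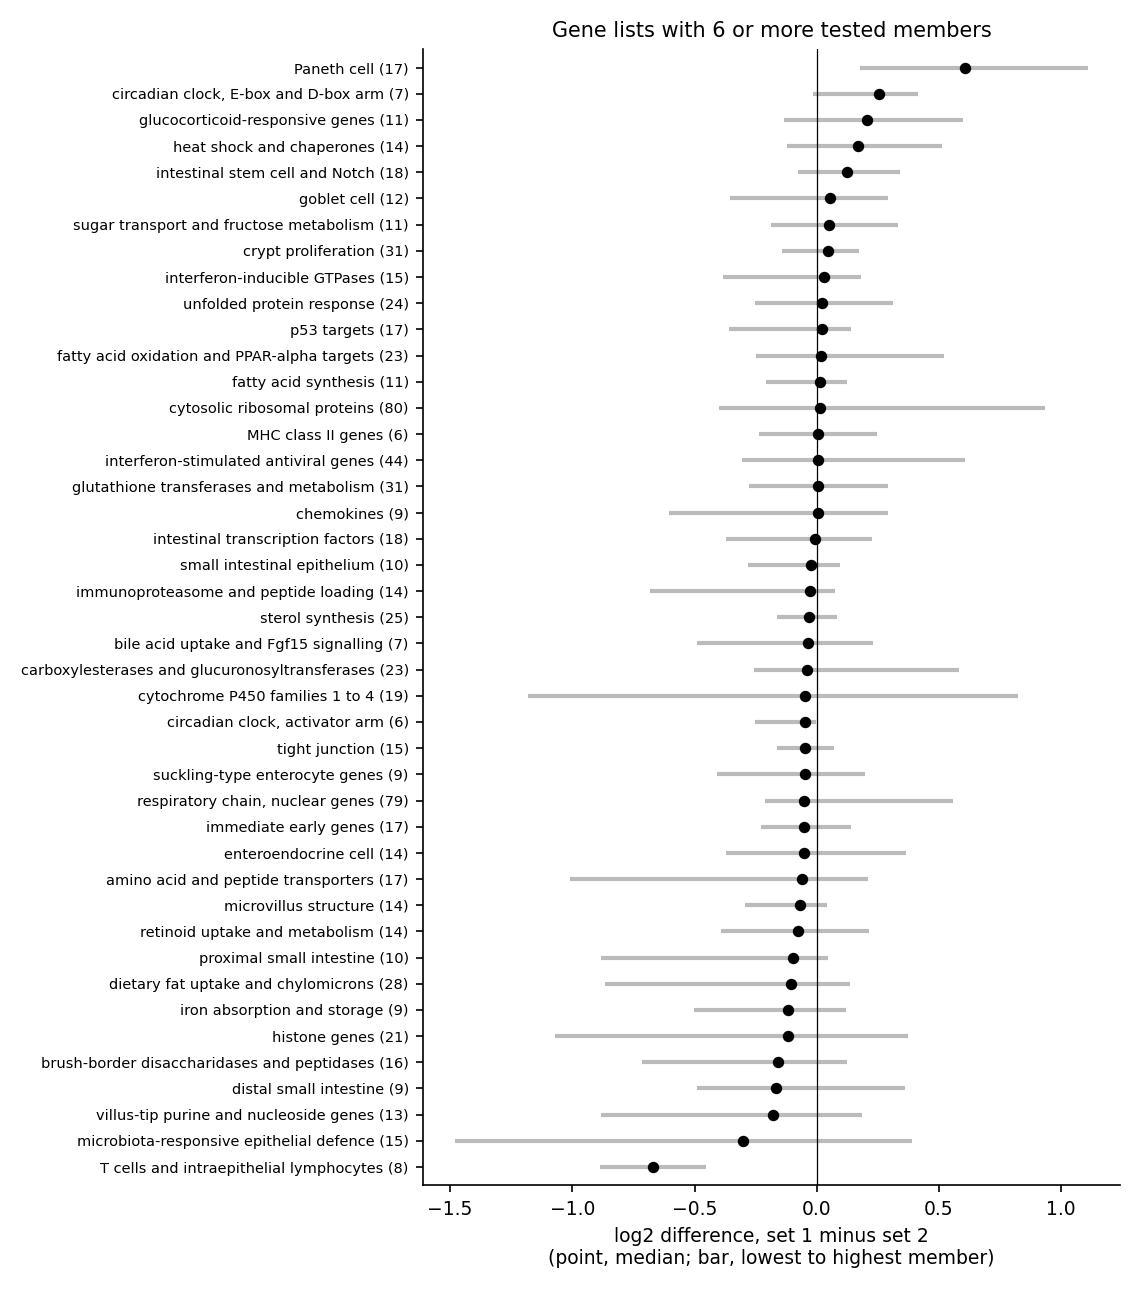
Median log2 difference (set 1 minus set 2, point) of each gene list with at least 6 tested members, and the range of its members (bar), with the number tested in brackets. The Paneth cell list has the highest median, 0.60, the list of T cells and intraepithelial lymphocytes the lowest, -0.67 (-1.13 without set 2 replicate 1 and -0.365 without set 2 replicate 3), and most medians lie near 0.

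Markers of cells other than epithelial cells were among the least even values. Of 19 genes of T cells and intraepithelial lymphocytes 8 were tested, all 8 had a lower mean in set 1 (median -0.67), 0 were called, and the sets overlapped for each of the 8. The median was -1.13 without set 2 replicate 1 and -0.365 without set 2 replicate 3. *Gzma*, granzyme A, measured 32.4, 33.2 and 72.9 FPKM in set 1 and 42.1, 94.8 and 128 FPKM in set 2 (-0.89, SE 0.44). *Gzmb*, granzyme B, measured 14.6, 15.2 and 38.4 FPKM in set 1 and 21.4, 46.5 and 56.2 FPKM in set 2 (-0.87, SE 0.40). In both, set 1 replicate 3 and set 2 replicates 2 and 3 were high and the other libraries low. The T cell chemokine *Ccl5* had a log2 difference of -0.61 (SE 0.55), the T cell receptor subunit *Cd3g* of -0.56 (SE 0.35) and the co-receptor *Cd8a* of -0.61 (SE 0.31). *Cd3g* and *Cd8a* were named after their values were seen. The summed level of the list was 75.5 to 181 FPKM in set 1 and 93.7 to 303 FPKM in set 2. *Mcpt1*, a protease of mucosal mast cells, measured 0.47, 0.14 and 1.90 FPKM in set 1 and 2.25, 4.11 and 7.95 FPKM in set 2 (-1.64, SE 0.60). The globin genes were low in set 1, with *Hba-a1* at 0.60, 1.91 and 1.65 FPKM in set 1 and 32.4, 4.37 and 5.05 FPKM in set 2 (-2.15, SE 0.71) and *Hbb-b1* at 0.22, 0.08 and 0.60 FPKM against 7.80, 2.08 and 1.43 FPKM (-1.66, SE 0.52). Neither *Mcpt1* nor the globins overlapped between the sets, and set 2 replicate 1 had the most globin. Globin genes summed to 1.14 to 2.53 FPKM in set 1 and 6.91 to 49.8 FPKM in set 2 over the erythroid list, of which 2 of 9 measured genes were tested. The part of blood, lymphocytes and mast cells in the other differences was not tested.

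Genes with a daily rhythm were listed in both arms of the circadian clock. Of 7 tested genes of the E-box and D-box arm, which the clock activators switch on, 6 had a higher mean in set 1. The median log2 difference was 0.25 (0.14 without set 1 replicate 1). Beside 5.95% of all genes in either direction, 3 of the 7 had an unadjusted p under 0.05 (limma). These were *Per1* (0.31, SE 0.12), *Per2* (0.41, SE 0.19) and *Bhlhe40* (0.25, SE 0.10), all feedback repressors of the clock. *Per2* measured 3.88, 3.06 and 3.94 FPKM in set 1 and 2.38, 2.04 and 3.02 FPKM in set 2. The other genes of this arm were *Tef* (0.29), *Nr1d2* (0.13), *Nr1d1* (0.08) and *Cry2* (-0.01). All 6 tested genes of the list named for the activator arm had a negative log2 difference, with *Nfil3* at -0.25. This list also holds repressors, *Nfil3* and *Cry1*. *Arntl* (-0.05), *Npas2* (-0.04), *Cry1* (-0.04) and *Clock* (-0.0048) were within 0.1 of 0 and their 95% intervals held 0. *Clock* had the same mean of 7.13 FPKM in both sets, and the signs of *Npas2*, *Cry1* and *Clock* turned when 1 library was left out. None of the clock genes tested was called. The hour of sampling is not given in the labels. Of 11 glucocorticoid-responsive genes 9 had a higher mean in set 1 (median 0.21, 0 called, 0.13 without set 1 replicate 3 or set 2 replicate 3), among them *Fkbp5* at 7.28, 5.82 and 9.72 FPKM in set 1 and 4.89, 5.18 and 4.76 FPKM in set 2 (0.51, SE 0.20), *Sgk1* (0.60, SE 0.29) and *Tsc22d3* (0.21, SE 0.09), named after their values were seen.

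Genes of xenobiotic metabolism differed in both directions in value. Of 19 cytochrome P450 genes 9 had a higher and 10 a lower mean in set 1, with 0 called and 3 of 19 without overlap on each side, beside 8.16% of all genes with set 1 above and 6.25% with set 2 above. *Cyp3a13*, a drug-metabolizing P450, measured 52.8, 71.6 and 56.4 FPKM in set 1 and 29.1, 36.9 and 34.5 FPKM in set 2 (0.82, SE 0.24). *Cyp1a1*, a target of the aryl hydrocarbon receptor, measured 2.74, 4.70 and 6.50 FPKM in set 1 and 20.9, 8.57 and 7.79 FPKM in set 2 (-1.18, SE 0.37). Both genes were without overlap, with set 1 above for *Cyp3a13* and below for *Cyp1a1*. *Cyp2c66* had a log2 difference of 0.70 (SE 0.21) and *Cyp4f16* of -0.60 (SE 0.18). *Cyp3a13*, *Cyp1a1* and *Cyp2c66* were named after their values were seen.

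The genes of the proteins that the study measured differed little. The 9 described here had log2 differences of -0.13 to 0.23, and 0 were called. *Gja4* was not tested. The 95% intervals of these genes lay between -0.38 and 0.50. *Cdh1*, E-cadherin, measured 259.7, 258 and 264 FPKM in set 1 and 247, 249.5 and 234 FPKM in set 2 (0.10, SE 0.05). The sets did not overlap for *Cdh1* nor for *Ctnnd1* (0.09, SE 0.07) and *Tjp1* (0.07, SE 0.13), which encode junction proteins. Those of *Vil1*, the villin of microvilli (-0.03), *Ocln*, occludin (0.02), *Gata4* (0.05), *Bcl2l1* (-0.04), *Klf7* (-0.13) and *Sox4* (0.23) overlapped.

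Taken alone, the set difference was called for 1 gene in Con-FMT, 3450 in A10-FMT, 0 in A100-FMT and 4318 in Sa. The question whether the set difference of Con-FMT was that of the other treatments was tested by the difference between their set differences. Against A10-FMT it passed the test for 2354 of 11337 genes (20.8%), 1594 with a higher set 1 minus set 2 value in Con-FMT (14.1%) and 760 with a lower one (6.7%). The median of this value over all genes was 0.13, and the split depended on the scaling: 67.7% of the called genes were positive as reported, 53% with quantile normalization, 35.8% with trimmed-mean scaling and 42.5% once GC content and length were adjusted for. The count was 1465 without Con-FMT set 2 replicate 2, 1530 without A10-FMT set 2 replicate 2, and 4177 or 4176 without Sa set 1 replicate 1 or 3. Against A100-FMT 0 genes passed (1483 at an unadjusted p under 0.05), but 240 did without Sa set 1 replicate 3, 239 without Sa set 1 replicate 1 and 5 without Con-FMT set 1 replicate 3. Against Sa 1 entry without a gene symbol passed (0.00882%, 3893 at an unadjusted p under 0.05), and 6247 genes did without Sa set 1 replicate 1. These comparisons share the Con-FMT libraries.

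Most genes of several enterocyte lists had another set difference in A10-FMT. Of these lists, 21 of 28 genes of dietary fat uptake, 12 of 16 brush-border genes, 10 of 13 villus-tip purine genes and 10 of 17 amino acid transporters passed with a lower set difference in Con-FMT, beside 6.7% of all genes. *Apoa4* was 1548 ± 227 FPKM in set 1 and 558 ± 160 FPKM in set 2 of A10-FMT (SD, n = 3), a log2 difference of 1.5, against 844 ± 103 and 1072 ± 184 FPKM in Con-FMT. The set difference in Con-FMT was lower by 1.84 on the log2 scale (SE 0.24, limma adjusted p = 0.00019). *S100g* was 262 ± 84.7 FPKM in set 1 and 57.0 ± 16.6 FPKM in set 2 of A10-FMT (SD, n = 3), the reverse of its order in Con-FMT. *Dnase1* was 208 ± 62.9 and 72.3 ± 13.9 FPKM there, *Ada* 53.4 ± 19.9 and 15.03 ± 4.05 FPKM and *Slc6a19* 124 ± 24.7 and 37.7 ± 3.25 FPKM (SD, n = 3). In each of these genes set 1 had a higher mean in A10-FMT and a lower one in Con-FMT, and each passed the test of the difference. In Con-FMT none of them was called between the sets, and the sets overlapped for *Apoa4*. Of the stem cell and Notch genes 11 of 18 passed with a higher set difference in Con-FMT, beside 14.1% of all genes (8 of 18 with trimmed-mean scaling, beside 5.42%). *Notch1* was 2.10 ± 0.06 FPKM in set 1 and 3.06 ± 0.26 FPKM in set 2 of A10-FMT (SD, n = 3), and *Sox9* 5.23 ± 0.17 and 8.01 ± 0.44 FPKM. Of the crypt proliferation genes 20 of 31 passed in this direction, and 9 of 31 with trimmed-mean scaling, beside the same shares of all genes. Of 8 T cell genes 3 passed with a lower set difference in Con-FMT, beside 6.7% of all genes. Among these were *Gzma* and *Gzmb*, the granzymes, and *Gzma* kept its call in 27 of 36 alternative settings. *Styk1*, with a value of 0.05 (SE 0.49), and *Cyp3a13*, with 0.05 (SE 0.34), had set differences of nearly the same size in both treatments, and their intervals were wide.

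**Figure D5:**
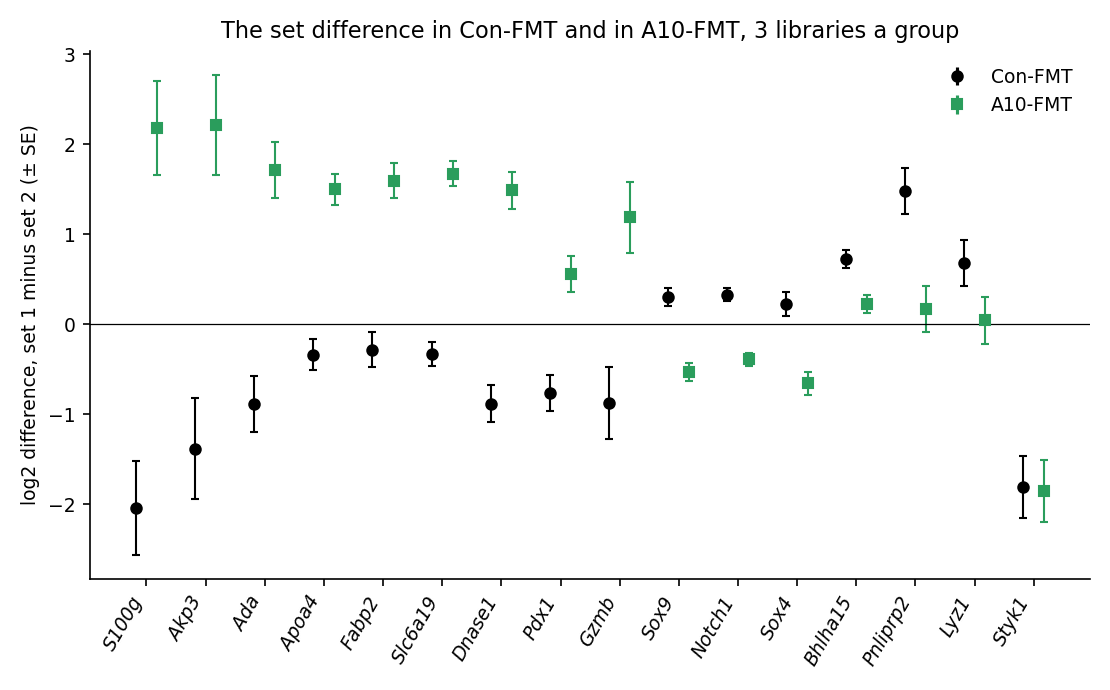
Log2 difference between the sets (set 1 minus set 2, ± SE) of 16 genes in Con-FMT and in A10-FMT, with 3 libraries per group. Of these, only *Bhlha15* was called in Con-FMT. Enterocyte genes such as *S100g* (-2.04 in Con-FMT and 2.18 in A10-FMT) and *Apoa4* (-0.34 and 1.5) have opposite signs in both treatments, as do *Notch1* and *Sox9* in the other direction, while *Styk1* has nearly the same value in both.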

How the data were processed

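Total RNA of mouse small intestine was sequenced on an Illumina HiSeq 2500 by the authors, whose methods name RPKM as the unit and DEGseq as their test. What the authors deposited is FPKM with 2 decimals, for 19215 entries in 24 columns, 1 of which was used only as an alternative. The submitters' processing notes give the build mm10, and the aligner and counter are not given in the sources used here. Whole reads could not be recovered from the steps between values, so no count model was fitted and a gene at 0 FPKM has no stated limit. Alternative settings were 21 planned ones and 17 added after seeing the data (leaving out libraries of other treatments, and the 6 libraries alone with the replicate block).

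Values were analysed as log2(FPKM + 1), and the added 1 shrinks the log2 differences of low genes. The 11337 genes averaging 1 FPKM or more across all 23 libraries were fitted with limma 3.58.1 in R 4.3.3 (lmFit with 1 mean for each of 8 groups, contrasts, eBayes with trend), so that all groups shared 1 estimate of the spread, with Benjamini-Hochberg adjustment across every gene tested. A gene was called at an adjusted p under 0.05. Differences are set 1 minus set 2, and the difference between treatments is the value of Con-FMT minus that of the other treatment. Tables and figures used Python 3.11.15, pandas 2.3.3, numpy 2.4.6 and matplotlib 3.10.9. The fit was tested on simulated data.

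Groups came from the sample titles. For Sa set 1 replicate 3 the title and the description name different columns, and the title's column was used. Genes were named by these rules: 12 per direction by size of the difference among called genes without overlap, filled up by smallest p where fewer were called; in each list the 3 most abundant members by mean FPKM and its called members, of which the text names a part; all tested clock genes; and the genes of the proteins the study measured. Other names are marked in the text, and 2 genes within these rules are not reported here. The members and gene lists were chosen with earlier results of these data known, and lists are described by counts and medians without a test. Gene coordinates and promoters are from RefSeq for GRCm38.p6. GC content and length were known for 10527 of the tested genes (92.86%).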

Additional observations from a re-analysis of the deposited data

Results flagged for a closer look

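A difference between treatments in the set difference was tested against A10-FMT, A100-FMT and Sa, and the genes named in the text were looked up in each test. Against A10-FMT 2354 genes passed and against Sa 1 entry, while 0 of the 105 named genes passed against A100-FMT or Sa. Of the 105 named genes 47 passed against A10-FMT, 15 with a higher and 32 with a lower set 1 minus set 2 value in Con-FMT, beside 14.1% and 6.7% of all genes. Many of the 105 were chosen by their set difference in Con-FMT, which is part of the value tested here. Their share may be raised by this choice and does not compare with that of all genes. Of the 24 genes chosen by p or size of that difference, 17 passed. For 45 of the 47 the set difference had opposite signs in Con-FMT and in A10-FMT, and only *Bhlha15* was called between the sets of Con-FMT. The 47 were picked by the difference of these values, so that opposite signs follow in part from the choice. In *Vil1* the sign in Con-FMT also turned when 1 library was left out. The median over all genes was 0.13, to which the values below relate.

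Among enterocyte genes the log2 value of Con-FMT minus A10-FMT was -4.21 for *S100g*, -3.59 for *Akp3*, -2.60 for *Ada*, -2 for *Slc6a19*, -1.97 for *Tmprss15*, -1.88 for *Fabp2*, -1.84 for *Apoa4*, -1.65 for *Slc46a1* and -1.62 for *Slc6a14*. It was -1.11 for *Alpi*, -1.01 for *Anpep*, -0.97 for *Slc7a7* and -0.51 for *Vil1*. Among other genes with a low p in the comparison of the sets it was -2.37 for *Dnase1*, -1.33 for *Pxdc1*, -1.32 for *Pdx1*, -0.999 for *Ckb*, -0.93 for *Fam214b*, -0.80 for *Prdm1*, -0.60 for *Fbxo25*, -0.51 for *Tmem150b* and -0.42 for *Pgrmc2*.

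Genes of other cell types and responses with a negative value were *Hba-a1* (-3.00), *Saa1* (-2.88), *Hbb-b1* (-2.27), *Gzmb* (-2.06), *Cyp1a1* (-2.06), *Gzma* (-2.03), *Cyp4f16* (-1.69), *Sct* (-0.97), *Clca1* (-0.75) and *Cck* (-0.48). The positive values were 1.31 for *Pnliprp2*, 0.88 for *Sox4*, 0.83 for *Sox9*, 0.72 for *Notch1*, 0.71 for *Olfm4*, 0.67 for *Bhlhe40*, 0.66 for *Notch2*, 0.63 for *Ephb3*, 0.57 for *Adra2a*, 0.54 for *Kit*, 0.52 for *Dag1*, 0.52 for *Per1*, 0.51 for *Bhlha15*, 0.46 for *Adamts15* and 0.31 for *Cdh1*. Some of these calls were unsteady over the alternative settings. The call was kept in 19 of 36 settings for *Cck*, 23 of 36 for *Hba-a1* and 23 of 35 for *Per1*. It was kept in 25 of 35 for *Adamts15*, 25 of 33 for *Hbb-b1* and 27 of 36 for *Gzma*. *Dnase1* and *Slc6a19* kept it in all 36. Groups of 3 libraries were not searched for single outlying libraries.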

How the results depend on the processing

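Read depth is unknown, and 3 libraries per group set the precision. The call of 1 gene became 0 with a minimum mean of 5 FPKM, at which *Bhlha15* was not tested (469 at an unadjusted p under 0.05, limma). It also became 0 with quantile normalization, the 6 Con-FMT libraries alone, the 18 FMT libraries, or the 6 alone with the replicate block. In these settings 705, 928, 1082 and 919 genes had an unadjusted p under 0.05 (limma). The count became 2 with the replicate block and with GC and length adjustment plus block. It was 0 to 2 when 1 library was left out, with 0 to 2 higher in set 1 and 0 to 1 in set 2. Whether the replicate numbers pair the libraries is not known, and deviations from means of 3 libraries cannot decide it. Their correlations were 0.277, -0.222 and 0.0823 for the same number and -0.329 to 0.279 for different numbers. The genes added were *Pnliprp2* (limma adjusted p 0.032 with the block, 0.0224 with GC adjustment and block, 0.0324 without A100-FMT set 1 replicate 1 and 0.0332 without A100-FMT set 2 replicate 2), *Ddx31* (named for this call, 0.0452 without Con-FMT set 1 replicate 3) and *Styk1* (0.0444 without A100-FMT set 1 replicate 2).

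The count against A10-FMT, 2354, was 3960 in the 18 FMT libraries, 4204 with the description's column, 4503 with array quality weights and 1465 to 4177 without 1 library. Against A100-FMT, 0 became 2 with no filter on low values, 1 with quantile normalization, 1 with trimmed-mean scaling, 107 in the 18 libraries, 172 with the description's column, 722 with weights, 78 with GC adjustment, 12 with GC adjustment and block, and 0 to 240 without 1 library. Against Sa, 1 became 2 with no filter, the description's column or the block, 0 with weights, GC adjustment or both GC adjustment and block, and 1 to 6247 without 1 library. The 30 entries at least 2-fold apart became 92 at a ratio of 1.5, 51 with a pseudocount of 0.1 and 40 to 56 without 1 Con-FMT library. For 47 named genes no value against A10-FMT changed sign, and 93 of the recomputed values lost the call while 1587 kept it. Of the list medians recomputed under all alternatives, 18 moved by more than the spread between libraries. The cause of these shifts was not tested.

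The sign of small log2 differences turned in *Cry1* (0.0044 with weights) and *Ocln* (-0.00482 with weights). Without 1 library the values ran from -0.137 to 0.0744 for *Cry1*, -0.0389 to 0.049 for *Ocln*, -0.0856 to 0.111 for *Cry2*, -0.12 to 0.21 for *Nr1d1*, -0.0817 to 0.269 for *Nr1d2*, -0.119 to 0.00727 for *Npas2*, -0.0393 to 0.0885 for *Gata4*, -0.0769 to 0.0701 for *Clock*, -0.0110 to 0.424 for *Mmp7*, -1.12 to 3.37 for *Defa21* and -0.0893 to 0.0163 for *Vil1*.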

Other observations

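Further gene lists had 0 called members. Of 79 nuclear genes of the respiratory chain 70 had a lower mean in set 1, with a median log2 difference of -0.052, and for 15 of 79 the sets did not overlap with set 2 above, against 6.25% of all genes. Of 80 cytosolic ribosomal protein genes 51 had a higher mean in set 1, with a median of 0.012 (-0.02 to 0.05 without 1 Con-FMT library) and without a gene whose sets did not overlap. Of 14 heat shock and chaperone genes 12 had a higher mean in set 1, with a median of 0.17 (0.04 without set 1 replicate 1). The 44 interferon-stimulated genes tested had a median of 0.0042 (-0.01 to 0.05 without 1 Con-FMT library), with 23 higher and 21 lower in mean in set 1. The 25 genes of sterol synthesis had a median of -0.032 (-0.14 to 0.06 without 1 Con-FMT library), and for 0 of 25 the sets did not overlap.

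Of 9 tested genes of the suckling enterocyte 6 had a lower mean in set 1 (median -0.05, and -0.16 without set 2 replicate 1). In Sa the set difference had a median of 1.22 for the Paneth cell genes and 0.42 for the ribosomal protein genes, against 0.60 and 0.012 in Con-FMT, and Sa of set 1 had 2 libraries. Of the clock genes not tested for their low level, *Dbp*, an output gene of the E-box arm, was at 1.78, 0.66 and 0.68 FPKM in set 1 and 0.38, 0.30 and 0.24 FPKM in set 2. *Ciart*, another gene of this arm, was at 0.66, 0.73 and 0.41 FPKM in set 1 and 0.17, 0.18 and 0.30 FPKM in set 2. Both had all libraries of set 1 above those of set 2 and were named after their values were seen. The other untested genes of this arm, *Per3*, *Hlf* and *Bhlhe41*, overlapped between the sets and were at most 0.51 FPKM. *Rora*, the untested gene of the activator list, overlapped as well.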
